A study of Mus musculus with 12 samples.

Results

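The catenins, the nectins, afadin and vinculin are the cytoplasmic and membrane parts of the adherens junction other than the cadherins themselves. The group was taken by gene symbol and holds 10 genes of the 52636 in the count table: the catenins Ctnnb1, Ctnna1, Ctnna2 and Ctnnd1, the nectins Nectin1, Nectin2, Nectin3 and Nectin4, the afadin gene Afdn, and Vcl, which encodes vinculin. Each of the 10 symbols matched 1 Ensembl identifier, and all 10 genes had enough reads to be tested.

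The data are RNA sequencing counts from 12 libraries of mouse embryonic salivary glands, dissected at E13.5 and grown for 2 days on a membrane at the surface of the medium. In the inhibitor experiment, 3 libraries came from glands with SU5402 at 2.5 µM (FGFRi), a small molecule that blocks FGF receptor kinases, and 3 from glands with its solvent DMSO; all 6 carry the genotype label wt. In the genetic experiment, 2 libraries came from K14Cre-Fgfr2b -/- glands (HOM), 2 from HET and 2 from WT littermates, none of them treated. There, Cre recombinase is driven by the keratin 14 promoter, which is active in epithelium, so the surrounding mesenchyme keeps its receptor genes, whereas SU5402 was added to the medium of whole glands. The labels do not say whether glands were pooled, and all 12 libraries carry 1 batch label.

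Adherens junctions hold neighbouring epithelial cells together and tie their membranes to the actin cytoskeleton. Classical cadherins bind β-catenin and p120-catenin through their tails, β-catenin binds α-catenin, and α-catenin binds actin and, under tension, vinculin. Nectins are immunoglobulin-type adhesion molecules that form a second adhesion system at the same junctions and are linked to actin by afadin. In a branching gland these contacts are remodelled as epithelial buds split and ducts form, and β-catenin also serves as the transcriptional effector of Wnt signalling.

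Sequences upstream of the start sites are shown for the 3 genes with the largest falls under FGFRi, and for the 1 member that was higher under it. Each is the 250 bases before a RefSeq transcription start on build GRCm38.p6, printed 5′ to 3′ along the gene, and capitals mark every match to 1 of the 5 motifs searched on both strands.
Nectin4 (chr1:171369923-171370172, plus strand): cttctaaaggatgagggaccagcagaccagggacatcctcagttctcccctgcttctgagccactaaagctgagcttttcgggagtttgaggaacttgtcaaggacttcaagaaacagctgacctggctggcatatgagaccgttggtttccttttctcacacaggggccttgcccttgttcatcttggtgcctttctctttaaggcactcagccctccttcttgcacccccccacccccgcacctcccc
Nectin2 (chr7:19749574-19749823, minus strand): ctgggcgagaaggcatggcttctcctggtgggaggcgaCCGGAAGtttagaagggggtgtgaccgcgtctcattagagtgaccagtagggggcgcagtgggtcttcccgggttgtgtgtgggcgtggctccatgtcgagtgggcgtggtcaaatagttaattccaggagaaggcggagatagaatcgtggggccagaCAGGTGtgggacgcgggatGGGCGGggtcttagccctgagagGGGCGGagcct
Afdn (chr17:13760291-13760540, plus strand): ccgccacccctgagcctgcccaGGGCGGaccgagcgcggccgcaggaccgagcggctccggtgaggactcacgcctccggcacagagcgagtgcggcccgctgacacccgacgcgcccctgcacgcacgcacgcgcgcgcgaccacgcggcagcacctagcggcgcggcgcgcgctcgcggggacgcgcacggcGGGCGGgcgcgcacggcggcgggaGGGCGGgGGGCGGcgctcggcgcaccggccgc
Ctnna2 (chr6:77979668-77979917, minus strand): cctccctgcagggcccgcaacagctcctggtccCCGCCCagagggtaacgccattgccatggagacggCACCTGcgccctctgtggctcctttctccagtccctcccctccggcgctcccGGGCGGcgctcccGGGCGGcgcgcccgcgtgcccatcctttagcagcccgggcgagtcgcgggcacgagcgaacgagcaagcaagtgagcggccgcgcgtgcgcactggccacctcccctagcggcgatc

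The motifs were CCGGAAG, bound by ETS factors, which act downstream of FGF and ERK signalling, AACNGGTT, bound by Grainyhead-like factors of epithelia, CACCTG, an E-box bound by Snail and Zeb factors, GGGCGG, the GC box of Sp factors, and the CArG box of serum response factor. No motif overlapped another one in the 4 windows. Of 32851 RefSeq windows of this length, 6.91% held CCGGAAG, 1.79% AACNGGTT, 17.2% CACCTG, 32.7% GGGCGG and 1.47% a CArG box. The Nectin4 window held none of the 5, with a GC content of 54.4% close to the median of 52.4% over all windows. The Nectin2 window held CCGGAAG once, CACCTG once and GGGCGG 2 times. The Afdn window held GGGCGG 4 times in a sequence with 82.8% GC, and the Ctnna2 window held CACCTG once and GGGCGG 3 times. Of the 8 members whose RefSeq windows were used, Vcl had the CArG box, at position -227 relative to its start. These are letter matches and say nothing about binding in the gland.

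Total counts per library ran from 6043701 to 22322182, and 3.93% to 14.2% of the counts were mitochondrial. Judged by Xist and genes of the Y chromosome, the 2 HOM libraries came out female and the 4 HET and WT libraries male. Sex and HOM genotype therefore cannot be told apart there. The 3 FGFRi libraries, DMSO 1 and DMSO 3 were female and DMSO 2 was male. Sex thus differed within the DMSO group alone. A fit with sex as a covariate takes its sex term from DMSO 2 against DMSO 1 and DMSO 3. Such a fit cannot separate sex from HOM genotype. Counts of the targeted gene Fgfr2, summed over all its isoforms, were 89.2 and 94.4 CPM in HOM glands, 86.2 and 99.9 CPM in HET glands and 101 and 99.2 CPM in WT glands, which does not check the deletion of 1 isoform. Levels are given as CPM, read counts scaled to a common library size with TMM factors. A change was called where edgeR's quasi-likelihood test gave a p under 0.05 after Benjamini-Hochberg adjustment over the 15859 genes tested.

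Summed marker levels of several cell types differed between groups. The summed level of 18 epithelial genes was 2261 to 2552 CPM in FGFRi glands against 3117 to 3624 CPM in DMSO glands, with 17 of the 18 genes lower. It was 2178 and 2291 CPM in HOM glands, 2754 and 2983 CPM in HET glands and 3215 and 3334 CPM in WT glands, with 10 of the 18 lower in HOM. The summed level of 17 mesenchymal genes was 3931 to 5458 CPM in FGFRi glands and 2356 to 2524 CPM in DMSO glands, with 16 of the 17 higher. It was 4083 and 4221 CPM in HOM glands, 3620 and 3981 CPM in HET glands and 2589 and 2663 CPM in WT glands, with 11 of the 17 higher in HOM. The summed level of 16 skeletal muscle genes was 572, 151 and 691 CPM in FGFRi glands against 20.2, 49.2 and 65.8 CPM in DMSO glands, with all 14 tested genes higher. It was 164 and 185 CPM in HOM glands, 88.9 and 135 CPM in HET glands and 18.9 and 15.0 CPM in WT glands, with 8 of the 14 higher in HOM. The part of these 3 marker lists in the members' results was not tested. Cdh1 is 1 of the 18 epithelial genes and Cdh11 1 of the 17 mesenchymal genes. No epithelial marker was at 0 in any library. In these bulk samples, fewer cells of a type and less RNA per cell cannot be told apart, and this applies to every level that follows.

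**Figure D1:**
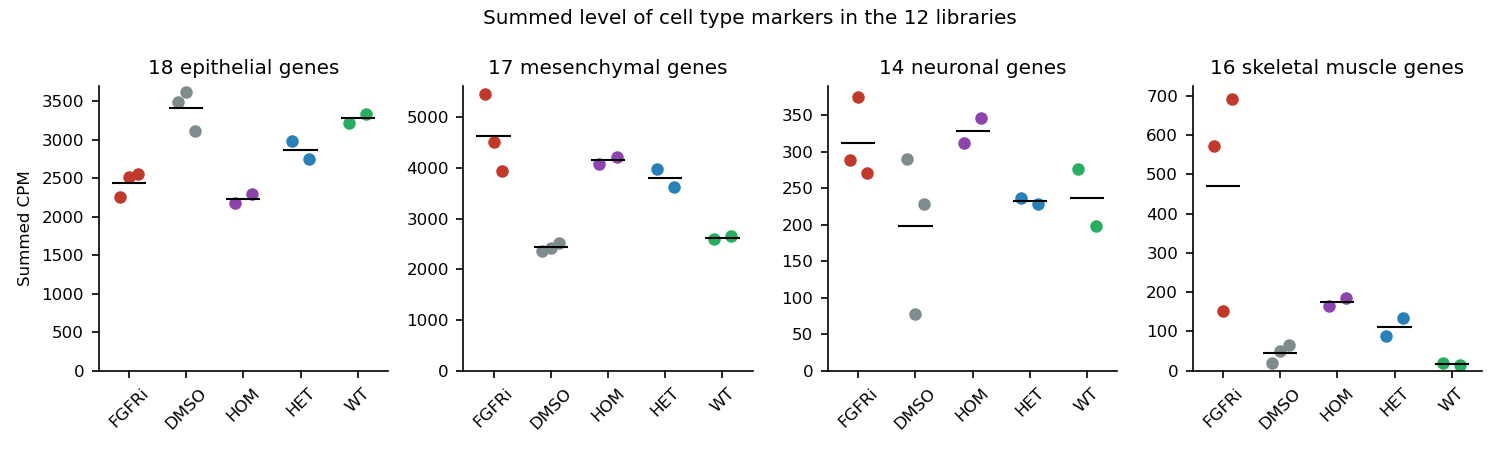
Summed normalized CPM of 4 lists of cell type markers, with 1 point per library and a bar at the group mean. The FGFRi and HOM libraries lie lowest in the epithelial panel, and the 3 DMSO and 2 WT libraries lie lowest in the mesenchymal panel.

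The epithelial α-catenin, afadin, 2 of the 4 nectins and vinculin were lower in FGFRi glands than in DMSO glands, and the neural α-catenin Ctnna2 was higher. Of the 10 members, 6 were called, 5 lower and 1 higher, where 20.5% of all genes tested were called in this comparison, 10.7% lower and 9.73% higher. The FGFRi and DMSO libraries did not overlap for 8 members, 6 of them lower and 2 higher, and over all genes 20.5% were lower and 17.2% higher without overlap. The median log2 fold change of the 10 members was -0.20, against -0.02 for all genes tested. In HOM glands 2 of the 10 members, Nectin4 and Afdn, were called, both lower, where 5.88% of all genes were called and 2.44% were called lower. For 8 of the members both HOM libraries lay below all 4 HET and WT libraries, and 12.2% of all genes did so. Their median was -0.22, against 0.00 for all genes.

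**Figure D2:**
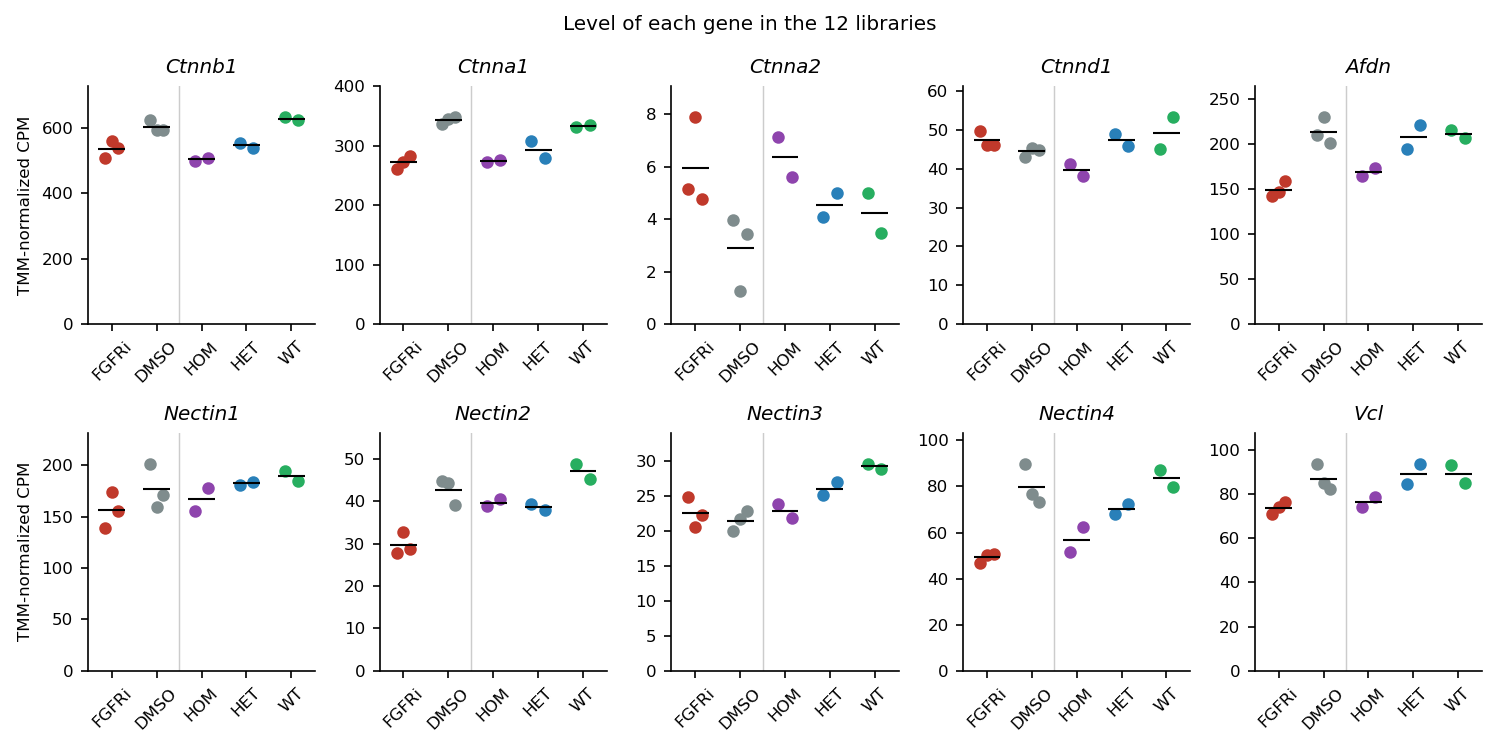
Normalized CPM of each of the 10 genes, with 1 point per library, a bar at the group mean and each axis from 0. The 3 FGFRi libraries lie below the 3 DMSO libraries for Ctnnb1, Ctnna1, Afdn, Nectin2, Nectin4 and Vcl, and both HOM libraries lie below the HET and WT libraries for 8 genes, all but Ctnna2 and Nectin2.

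Among the catenins, Ctnna1 (ENSMUSG00000037815, chromosome 18) encodes αE-catenin, the α-catenin of epithelia, which joins the cadherin and β-catenin pair to actin. Its level was 261, 273 and 284 CPM in the 3 FGFRi libraries against 337, 345 and 349 CPM in the 3 DMSO libraries. The groups were far apart relative to their spread, and the log2 fold change was -0.33 ± 0.07 (SE, edgeR, adjusted p = 0.00345). HOM glands had 272 and 277 CPM, HET glands 307 and 280 CPM, and WT glands 332 and 336 CPM. Both HOM values lay just below the lower HET value, and the log2 fold change of HOM against the mean of WT and HET was -0.19 ± 0.07 (edgeR, adjusted p = 0.155), which did not pass.

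Ctnnb1 (ENSMUSG00000006932, chromosome 9) encodes β-catenin, which binds the cadherin tail and carries the Wnt signal. It was measured at 508, 558 and 538 CPM in FGFRi glands and at 624, 592 and 593 CPM in DMSO glands. The groups did not overlap, but the log2 fold change of -0.17 ± 0.08 did not pass (edgeR, adjusted p = 0.120). HOM glands had 498 and 508 CPM, HET glands 553 and 539 CPM and WT glands 632 and 623 CPM, so that the 3 genotypes formed 3 separate steps. The HOM log2 fold change was -0.22 ± 0.08 (edgeR, adjusted p = 0.131) and did not pass either. Both differences passed with other tools: limma-voom gave an adjusted p of 0.0413 for FGFRi and 0.0324 for HOM, and DESeq2 gave 0.0460 for FGFRi and 0.00706 for HOM.

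Ctnnd1 (ENSMUSG00000034101, chromosome 2) encodes p120-catenin, which binds the cadherin tail near the membrane and keeps cadherins at the cell surface. It was the member whose libraries were ordered in opposite ways in the 2 experiments. FGFRi glands had 49.7, 46.1 and 46.1 CPM, all above the 43.1, 45.4 and 44.8 CPM of DMSO glands, with a log2 fold change of 0.08 ± 0.08 (edgeR, adjusted p = 0.544). HOM glands had 41.1 and 38.1 CPM, both below the 48.9 and 45.9 CPM of HET glands and the 45.1 and 53.3 CPM of WT glands, with a log2 fold change of -0.29 ± 0.09 (edgeR, adjusted p = 0.0629). Neither change passed in edgeR. The HOM change passed with limma-voom (adjusted p = 0.0431) and in edgeR with protein-coding genes alone (adjusted p = 0.0466). In the annotation used here, 61.2% of the exon bases of Ctnnd1 are shared, on the same strand, with the gene Gm28635, which had 0 counts in all 12 libraries. Reads from the shared bases may therefore be missing from its counts, and its level may be too low.

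Ctnna2 (ENSMUSG00000063063, chromosome 6) encodes αN-catenin, the α-catenin known mainly from neurons. It was the lowest of the 10 genes, with 21 to 135 counts per library. FGFRi glands had 5.14, 7.88 and 4.76 CPM against 3.98, 1.25 and 3.45 CPM in DMSO glands, a log2 fold change of 1.22 ± 0.36 (edgeR, adjusted p = 0.0274). All FGFRi values lay above all DMSO values, and DMSO 2 stood well below the other 2. Without DMSO 2 the log2 fold change was 0.66 (adjusted p = 0.161), and without FGFRi 2 it was 0.97 (adjusted p = 0.113). The call thus rested on each of these libraries. It was also lost with the FGFRi and DMSO libraries fitted alone (1.21, edgeR, adjusted p = 0.0731). HOM glands had 7.12 and 5.59 CPM, HET glands 4.09 and 4.99 CPM and WT glands 4.98 and 3.46 CPM. Both HOM values were the highest of the 6, but the log2 fold change of 0.51 ± 0.32 did not pass (edgeR, adjusted p = 0.414).

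Neuronal markers were high and low in some of the same libraries as Ctnna2. The summed level of 14 neuronal genes was 288, 375 and 271 CPM in FGFRi glands against 290, 77.5 and 228 CPM in DMSO glands, lowest in DMSO 2 and highest in FGFRi 2. It was 312 and 346 CPM in HOM glands, 237 and 229 CPM in HET glands and 276 and 199 CPM in WT glands. Of the 14 genes, 5 were higher with FGFRi and 1 in HOM, and none was at 0 in any library. Their part in the Ctnna2 result was not tested. DMSO 2 was also the male library of its group, and with sex as a covariate the log2 fold change of Ctnna2 was 0.66 (edgeR, adjusted p = 0.167). The sex term of that fit absorbs DMSO 2, so it is no separate check from leaving DMSO 2 out.

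Ctnna2 made up 2.13% ± 0.60 of the counts of both α-catenins in FGFRi glands and 0.835% ± 0.422 in DMSO glands (SD, n = 3 each). The share was lowest in DMSO 2, at 0.361% with an exact binomial 95% interval of 0.231% to 0.536%, and highest in FGFRi 2, at 2.81% with an interval of 2.21% to 3.52%. In HOM glands it was 2.55% and 1.98%, in HET glands 1.31% and 1.75%, and in WT glands 1.48% and 1.02%. Both HOM shares lay above the 4 others, and αE-catenin remained over 97% of the α-catenin counts in every library. These intervals cover counting error only.

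The nectins did not move as 1 family. Nectin4 (ENSMUSG00000006411, chromosome 1) encodes a nectin found mainly in embryonic tissue and skin, which binds nectin-1 on the opposite cell. FGFRi glands had 47.0, 50.2 and 50.7 CPM against 89.9, 76.8 and 73.1 CPM in DMSO glands. The log2 fold change of -0.69 ± 0.09 (edgeR, adjusted p = 1.74e-04) corresponds to 0.620 times the DMSO level and was the largest fall among the 10 members. HOM glands had 51.4 and 62.3 CPM, below the 67.9 and 72.3 CPM of HET glands and the 87.3 and 80.0 CPM of WT glands. The HOM log2 fold change was -0.42 ± 0.10 (edgeR, adjusted p = 0.0176). The genotypes were in the order HOM, HET, WT without overlap, and HET stood between the other 2.

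The HOM call of Nectin4 was lost when 1 of several libraries was left out. Its adjusted p was 0.182 without HOM 1, with a log2 fold change of -0.30, 0.0511 without HET 2 and 0.0774 without WT 1. With sex as a covariate, the log2 fold change was -0.51 (edgeR, adjusted p = 0.309). The sex term of that fit rests on DMSO 2 alone, so it cannot separate sex from HOM genotype. The FGFRi call of Nectin4 held without each library in turn.

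Nectin2 (ENSMUSG00000062300, chromosome 7) encodes a widely expressed nectin that is also a ligand of lymphocyte receptors. It was measured at 27.7, 32.7 and 28.7 CPM in FGFRi glands against 44.9, 44.3 and 39.1 CPM in DMSO glands, a log2 fold change of -0.53 ± 0.09 (edgeR, adjusted p = 9.01e-04). Every FGFRi library lay below every DMSO library. HOM glands, with 38.8 and 40.6 CPM, overlapped HET glands with 39.4 and 37.9 CPM, and both lay below WT glands with 48.9 and 45.3 CPM. The HOM log2 fold change was -0.10 ± 0.09 (edgeR, adjusted p = 0.594). The difference between the FGFRi effect and the HOM effect, -0.42 ± 0.13, had the smallest adjusted p of the 10 members, 0.0885, and did not pass.

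Nectin1 (ENSMUSG00000032012, chromosome 9) encodes the nectin that pairs with nectin-3 and nectin-4 across cells, and whose human counterpart is mutated in a cleft lip and ectodermal dysplasia syndrome. Its level was 139, 174 and 156 CPM in FGFRi glands and 202, 159 and 171 CPM in DMSO glands, and the groups overlapped. The log2 fold change of -0.18 ± 0.10 did not pass (edgeR, adjusted p = 0.228, 95% interval -0.38 to 0.03). HOM glands had 156 and 178 CPM, HET glands 181 and 184 CPM and WT glands 195 and 185 CPM, and the log2 fold change of -0.16 ± 0.10 did not pass (edgeR, adjusted p = 0.447).

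Nectin3 (ENSMUSG00000022656, chromosome 16) encodes a nectin that binds nectin-1 across many heterotypic contacts. FGFRi glands had 24.8, 20.5 and 22.3 CPM and DMSO glands 19.9, 21.6 and 22.8 CPM, with overlap and a log2 fold change of 0.06 ± 0.10 (edgeR, adjusted p = 0.732, 95% interval -0.15 to 0.27). HOM glands had 23.8 and 21.8 CPM, HET glands 25.1 and 26.9 CPM and WT glands 29.6 and 28.9 CPM. The HOM values were the lowest of the 6, but the log2 fold change of -0.28 ± 0.10 did not pass (edgeR, adjusted p = 0.109).

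The nectin counts of the FGFRi and HOM glands held a lower share of Nectin4, given here as a description without a test. Nectin4 contributed 19.2% ± 0.92 of the counts of the 4 nectins in FGFRi glands and 24.8% ± 0.83 in DMSO glands (SD, n = 3 each). The 3 FGFRi shares, 19.7%, 18.1% and 19.7%, were all below the DMSO shares of 25.2%, 25.4% and 23.9%. In HOM glands the Nectin4 share was 19.1% and 20.6%, in HET glands 21.7% and 22.5%, and in WT glands 24.2% and 23.6%. The 95% exact binomial interval was 17.8% to 20.4% in HOM 1 and 20.4% to 22.9% in HET 1, so the ends of these intervals met, and the interval of HOM 2, 19.7% to 21.5%, overlapped that of HET 1. The intervals cover counting error only. Nectin1 contributed 60.5% ± 2.22 in FGFRi glands and 55.1% ± 2.04 in DMSO glands, 57.7% and 58.8% in HOM glands, 57.8% and 57.3% in HET glands, and 54.0% and 54.6% in WT glands. Per kilobase of exon, Nectin1 made up 54.0% and Nectin4 25.8% in FGFRi glands, against 47.0% and 32.0% in DMSO glands. These shares are ratios within a library and do not depend on the scaling between libraries.

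**Figure D3:**
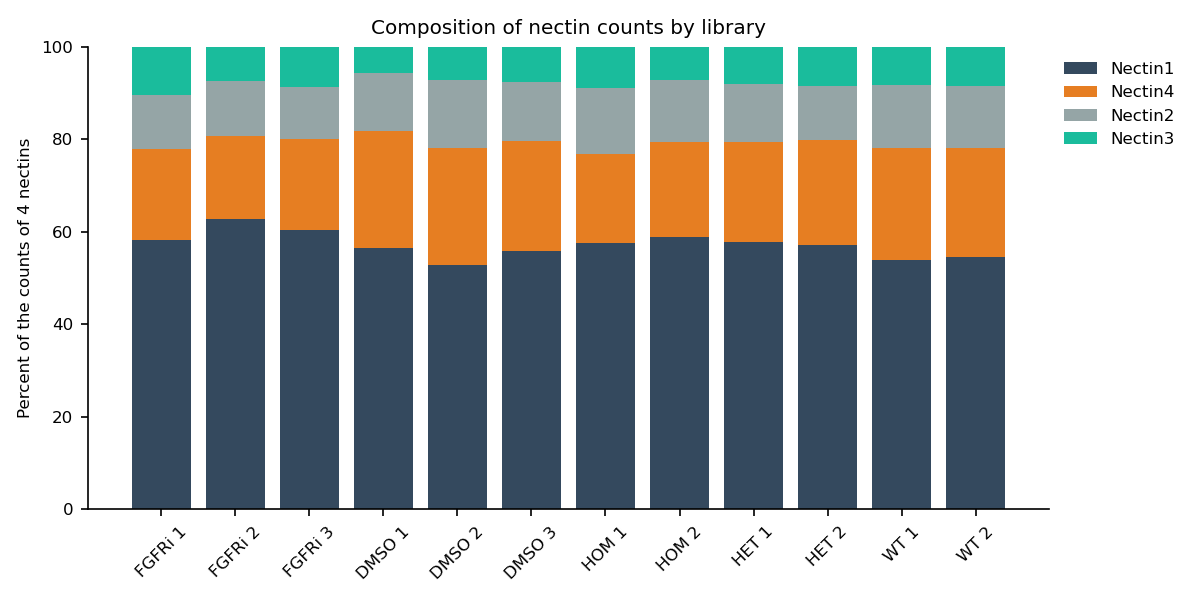
Share of each nectin in the summed counts of the 4 nectin genes, with 1 stacked bar per library. The Nectin4 share lies between 18.1% and 19.7% in the FGFRi bars against 23.9% to 25.4% in the DMSO bars, and at 19.1% and 20.6% in the HOM bars against 21.7% to 24.2% in the HET and WT bars.

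Afdn (ENSMUSG00000068036, chromosome 17) encodes afadin, the adaptor that binds nectin tails and actin and also contacts α-catenin. FGFRi glands had 143, 147 and 159 CPM against 211, 230 and 201 CPM in DMSO glands. The log2 fold change was -0.52 ± 0.08 (edgeR, adjusted p = 3.11e-04), or 0.699 times the DMSO level. HOM glands had 165 and 174 CPM against 195 and 221 CPM in HET glands and 215 and 207 CPM in WT glands, a log2 fold change of -0.31 ± 0.08 (edgeR, adjusted p = 0.0348). HET and WT libraries overlapped for Afdn, unlike for Nectin4. The HOM call of Afdn was lost without HOM 1 (adjusted p = 0.186), HOM 2 (0.171), HET 2 (0.0881), WT 1 (0.117) or WT 2 (0.0813), and with sex as a covariate the log2 fold change was -0.15 (adjusted p = 0.835). The fit with sex cannot separate sex from HOM genotype, because its sex term rests on DMSO 2 alone. With the replicate number as a block the adjusted p of Afdn was 0.0585 (edgeR).

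Vcl (ENSMUSG00000021823, chromosome 14) encodes vinculin, which is recruited to α-catenin under tension and strengthens the link to actin, and which also sits in focal adhesions. Its level was 70.8, 74.3 and 76.3 CPM in FGFRi glands against 93.8, 84.8 and 82.1 CPM in DMSO glands. The groups did not overlap, and the log2 fold change was -0.23 ± 0.08 (edgeR, adjusted p = 0.0461). This call lay close to the threshold and was lost without FGFRi 1 (0.198), FGFRi 2 (0.145), FGFRi 3 (0.0617), DMSO 1 (0.173) or DMSO 2 (0.0885), with limma-voom (0.0536) and with DESeq2's Wald test (0.0925). Of the 20 alternatives tried for it, 2 kept it. HOM glands had 74.3 and 78.8 CPM, HET glands 84.4 and 93.8 CPM and WT glands 93.2 and 84.8 CPM, with a log2 fold change of -0.22 ± 0.08 (edgeR, adjusted p = 0.125). Of the exon bases of Vcl, 25.5% overlap Ap3m1 on the opposite strand, and the use of strand in counting is not given.

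The direction of most members depended on what the libraries were scaled to. The libraries were also scaled to the summed counts of the epithelial genes. This moved the median of all genes to a log2 fold change of 0.46 for FGFRi and 0.45 for HOM. Of all genes, 8858 were then called higher and 152 lower with FGFRi, and 9065 higher and 88 lower in HOM. A call of higher on this scale was therefore not particular to the members. On that scale Ctnna2, Ctnnb1 (0.30), Ctnnd1 (0.57), Nectin1 (0.30), Nectin3 (0.54) and Vcl (0.25) were higher with FGFRi and passed, while Ctnna1 was at 0.14 and did not. Nectin4 stood at -0.21 (adjusted p = 0.0863), Nectin2 at -0.05 and Afdn at -0.04. None of these 3 passed, and of the 10 members they lay furthest below the median of all genes. In HOM glands on the same scale, Ctnna1 (0.27), Ctnna2 (0.97), Ctnnb1 (0.24), Nectin1 (0.30) and Nectin2 (0.35) were higher and passed, and Ctnnd1 (0.17), Nectin3 (0.18), Vcl (0.23), Nectin4 (0.02) and Afdn (0.14) did not pass.

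**Figure D4:**
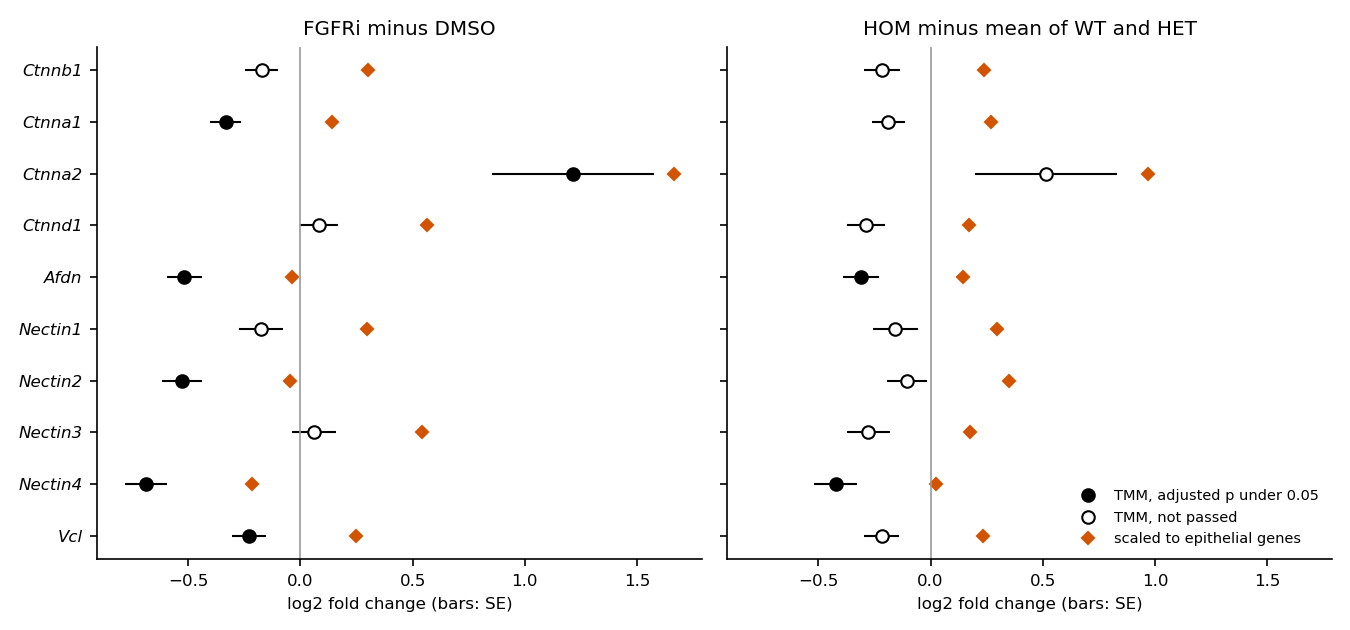
Log2 fold change of each gene for FGFRi against DMSO (left) and for HOM against the mean of WT and HET (right), with bars of 1 SE. Circles use TMM scaling and are filled where the adjusted p was under 0.05, and diamonds use scaling to epithelial genes, which moves every gene to the right.

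One deleted copy of the receptor gave no call among the members. In HET against WT, 0 of the 10 members were called by edgeR, where 1.22% of all genes were, and DESeq2 and limma-voom also called 0. At an unadjusted p under 0.05 there were 4 members, Ctnna1, Ctnnb1, Nectin2 and Nectin4, all lower in HET, and 2144 of all 15859 genes. For 6 members both HET libraries lay below both WT libraries, where 22.1% of all genes did so. Nectin2 had the smallest adjusted p, 0.237, with a log2 fold change of -0.29 ± 0.10. The epithelial marker sum was likewise lower in HET than in WT glands, and its part in these values was not tested.

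The 2 sets of wild-type control glands, DMSO from the inhibitor experiment and WT from the genetic one, were close for most members. Nectin3 was called among the 10, where 2.26% of all genes were. It had 19.9, 21.6 and 22.8 CPM in DMSO glands against 29.6 and 28.9 CPM in WT glands, a log2 fold change of -0.45 ± 0.10 (edgeR, adjusted p = 0.0375). The call was lost without any 1 of these 5 libraries (adjusted p from 0.0528 to 0.281). With sex as a covariate the log2 fold change of Nectin3 was -0.43 (edgeR, adjusted p = 0.126), and Ctnna2 was called in its place (-1.77, adjusted p = 0.0251). Both WT libraries were male, so this fit in effect sets DMSO 2 alone against WT. Ctnna2 had 24 counts in DMSO 2. Solvent, littermate background and litter cannot be told apart in this comparison, and DMSO 1 and DMSO 3 were female while both WT libraries were male.

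The FGFRi effect and the HOM effect, which share no library, were compared directly. None of the 10 members was called in the difference of the 2 effects, where 2.77% of all genes were, and DESeq2 and limma-voom also called 0. At an unadjusted p under 0.05 there were 2629 of all 15859 genes and 3 members, Nectin2 (-0.42 ± 0.13), Ctnnd1 (0.37 ± 0.12) and Nectin3 (0.34 ± 0.14), with adjusted p of 0.0885, 0.120 and 0.220 in edgeR. For Nectin4 the difference was -0.27 with a 95% interval of -0.55 to 0.02, and for Afdn it was -0.21 with an interval of -0.44 to 0.03, so that a somewhat larger effect of FGFRi on both was within the error. For Ctnnb1 and Vcl the differences were 0.04 and -0.01, with intervals of -0.19 to 0.28 and -0.25 to 0.22.

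Levels were compared between genes per kilobase of exon. The median over the 12 libraries was highest for Ctnnb1 at 107 CPM per kilobase, followed by Ctnna1 at 46.0 and Nectin1 at 31.2, and these 3 did not overlap in range. Afdn at 19.4 and Nectin4 at 18.7 CPM per kilobase could not be ordered, with Afdn above Nectin4 in 9 of 12 libraries. Nectin2 at 11.2 lay below Nectin4 in each library although their ranges overlapped, and it was not separated from Vcl at 10.16 CPM per kilobase. Ctnnd1 followed at 6.24, Nectin3 at 1.83 and Ctnna2 at 0.701 CPM per kilobase, each below the one before in all 12 libraries. The place of Ctnnd1 depends on its exon length. Per kilobase of the exon bases that it shares with no other gene, its median was 16.1, between those of Nectin4 and Nectin2. Counted the same way, the medians were 18.7 for Nectin4, 13.6 for Vcl and 11.7 for Nectin2. The order of Vcl and Nectin2 thus also depends on exon length. Among the nectins the order was Nectin1, Nectin4, Nectin2 and Nectin3 in every library.

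**Figure D5:**
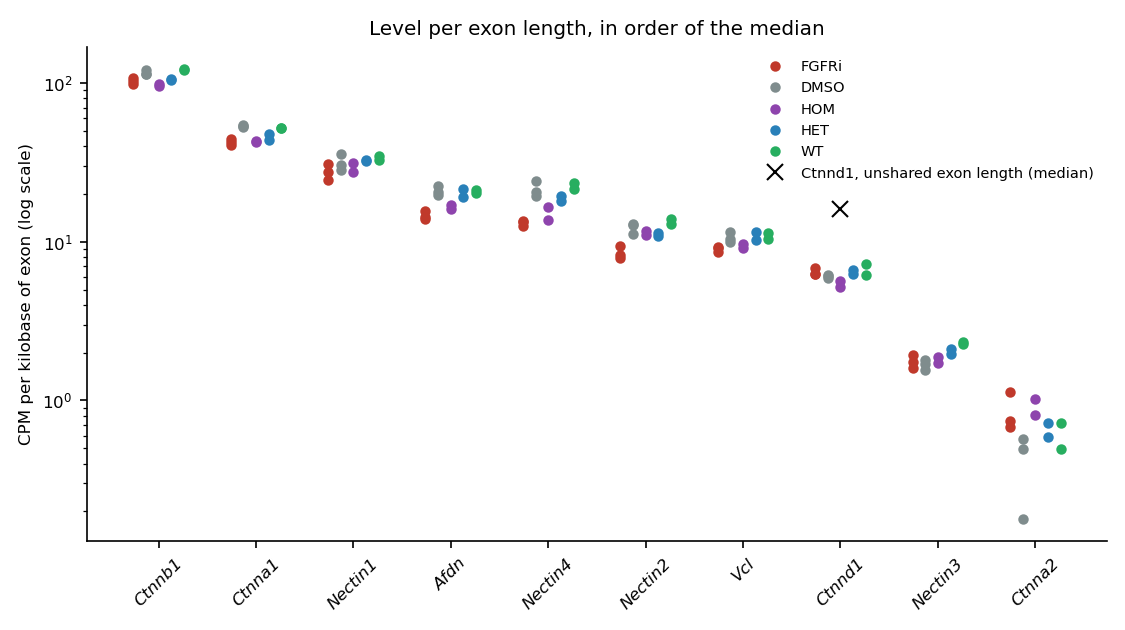
Level of each gene in CPM per kilobase of exon on a log scale, with 1 point per library, in order of the median. Ctnnb1 lies near 107 and Ctnna2 near 0.701, and the cross marks the median of 16.1 for Ctnnd1 per kilobase of unshared exon.

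The cadherins that the catenins bind moved in opposite directions. Of 12 tested genes in a list of cadherins and catenin relatives, 3 were higher and 2 lower with FGFRi. In HOM, 3 were higher and 2 lower. The share of all genes called was 20.5% with FGFRi and 5.88% in HOM. Cdh1, the epithelial E-cadherin, averaged 451 ± 40 CPM in FGFRi glands and 583 ± 52 CPM in DMSO glands (SD, n = 3 each), a log2 fold change of -0.37 ± 0.09 (edgeR, adjusted p = 0.00956), and fell by 0.47 ± 0.10 in HOM (adjusted p = 0.0110). With FGFRi against DMSO the log2 fold change was -0.33 for Ctnna1, -0.52 for Afdn, -0.53 for Nectin2 and -0.69 for Nectin4. The mesenchymal cadherin Cdh11 was higher by 1.46 ± 0.13 with FGFRi (adjusted p = 6.27e-06) and by 0.58 ± 0.13 in HOM (adjusted p = 0.0148). Cdh2, which encodes N-cadherin and is found in mesenchyme and neurons, was higher by 1.46 ± 0.20 with FGFRi (adjusted p = 1.68e-04). Cdh6 was higher by 1.05 ± 0.24 with FGFRi (adjusted p = 0.00587) and by 1.10 ± 0.21 in HOM (adjusted p = 0.00662). Its level was low, with means of 4.71 CPM in FGFRi, 2.43 in DMSO, 6.70 in HOM and 3.24 in WT and HET glands. With sex as a covariate, a term that rests on DMSO 2 alone, the FGFRi call of Cdh6 was lost (0.87, edgeR, adjusted p = 0.0520). Jup, the plakoglobin gene and closest relative of Ctnnb1, fell by 0.32 ± 0.08 in HOM (edgeR, adjusted p = 0.0218). The fifth called gene of this list was Jup with FGFRi (-0.27 ± 0.07, edgeR, adjusted p = 0.0148) and Cdh2 in HOM (0.69 ± 0.18, edgeR, adjusted p = 0.0377), both named after their values were seen and not followed through the alternatives.

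The HOM calls of Jup and these cadherins were lost when certain libraries were left out. Among the 6 fits that each left out 1 library, the call was lost in 5 for Jup, 4 for Cdh11, 3 for Cdh1 and 2 for Cdh6. Without HOM 1 the adjusted p was 0.184 for Jup, 0.125 for Cdh11, 0.0892 for Cdh1 and 0.0723 for Cdh6. Without HOM 2 it was 0.0869 for Jup, 0.108 for Cdh11, 0.118 for Cdh1 and 0.0648 for Cdh6. Jup was also lost without HET 1 (0.0517), WT 1 (0.0899) or WT 2 (0.0830), Cdh11 without HET 2 (0.0506) or WT 2 (0.0517), and Cdh1 without WT 2 (0.0542). With sex as a covariate none of these 4 was called in HOM (edgeR, adjusted p from 0.491 to 0.731), where 46 of all genes were called. The sex term rests on DMSO 2 alone, so this fit cannot separate sex from HOM genotype. The FGFRi call of Cdh1 was lost without FGFRi 1 (adjusted p = 0.0752).

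Of 16 genes in a list of junction actin linkers, 4 were higher and 3 lower with FGFRi, and 0 were called in HOM. Over all genes tested, 20.5% were called with FGFRi and 5.88% in HOM. In the difference of the FGFRi and HOM effects, 0 of the 16 were called, where 2.77% of all genes were. Actn1 and Actn4, which encode the α-actinins that crosslink actin and bind vinculin and α-catenin, fell by 0.38 ± 0.07 (adjusted p = 0.00144) and 0.36 ± 0.07 (edgeR, adjusted p = 0.00304). Sorbs3, which encodes a vinculin-binding adaptor, was higher by 0.55 ± 0.12 (edgeR, adjusted p = 0.00590). Of 10 partners of nectins and afadin, Camsap3 was lower with FGFRi (-0.42 ± 0.10, edgeR, adjusted p = 0.00853), and 0 were called in HOM. Camsap3 anchors microtubule minus ends and is found at adherens junctions. Its FGFRi call was lost without FGFRi 1 (-0.31, edgeR, adjusted p = 0.0621). Of 5 tested nectin-like molecules and receptors, 0 were called in either comparison.

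Across the 12 libraries the members fell into a set that varied together and several that did not. As a description of log2 levels, without a test, Pearson's r was 0.93 between Nectin4 and Afdn, 0.92 between Nectin4 and Vcl, 0.90 between Afdn and Vcl and 0.89 between Ctnna1 and Ctnnb1. Ctnna1 and Ctnna2 ran in opposite directions with r of -0.71, and Ctnnd1 had r of 0.05 with both Nectin4 and Afdn. The points share 5 groups of libraries whose marker levels also differ.

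Among 10396 other genes, those most like each member over the 12 libraries were the following. Ctnna1 was closest to Tspan13 (0.97), Epcam (0.97) and Cldn1 (0.96), and Epcam and Cldn1 encode epithelial adhesion and tight junction proteins. Ctnna2 was closest to Dcc (0.99), a netrin receptor of growing axons, and to Gprasp1 and Cnr1 (0.96 each). Ctnnb1 was closest to Jup (0.95), Ezr (0.93), which encodes the membrane and actin linker ezrin, and Limk2 (0.93). Nectin4 was closest to Lig1 (0.97), Trp53bp2 (0.97) and Cmtm6 (0.96), and Afdn to Aacs, Rhpn2 and Wwc1 (0.97, 0.97 and 0.96). Nectin2 was closest to Col9a3 (0.98), Tacc3 (0.97) and Ybx3 (0.96). Vcl was close to Cdc42bpg and Acvr1b (0.94 each), and Nectin1 to Sec24c, Skiv2l and Cep89 (0.92, 0.92 and 0.91). Ctnnd1 and Nectin3 had the lowest r at the third gene: Ctnnd1 with Luzp1, Capn7 and Met (0.88, 0.88 and 0.87), and Nectin3 with Ctnnal1, an α-catenin relative, Mcc and Taf1 (0.92, 0.87 and 0.85).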

How the data were processed

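Per the labels' protocols, NEBNext Ultra II libraries were prepared from the glands' total RNA after removal of ribosomal RNA. The authors deposited 1 table of whole-number counts of reads per gene, not normalized, for 12 libraries. Per the submitters' processing notes, bcl2fastq, STAR and the build GRCm39 were used. A counting program, a strand setting and an annotation release were not given in the sources used here. Ensembl identifiers were matched to GENCODE M21 (build GRCm38) for symbols and exon lengths, and 52489 of 52636 matched, so exon lengths and overlaps are those of the earlier build and no gene coordinates are printed. Total counts ran from 6043701 to 22322182 per library, and reads were not collapsed by molecular identifiers. Between 16.3% and 39.6% of the counts fell on features that resemble ribosomal RNA.

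Tests used R 4.3.3 and edgeR 4.0.16 (quasi-likelihood F test, TMM, filterByExpr with a minimum count of 10 and a minimum total of 15) on all 12 libraries with 1 coefficient per group, which kept 15859 genes (7 residual degrees of freedom, prior df 7.96, common coefficient of variation 0.110). Two-sided p-values were adjusted within each comparison (Benjamini-Hochberg, all genes tested), and SE is the log2 fold change divided by the square root of F. FGFRi was set against DMSO, HOM against the WT and HET mean, HET against WT and DMSO against WT, and the first 2 effects were subtracted. Whether libraries stem from different embryos is not in the labels, so p-values measure the spread between these libraries, which may be technical. Same-numbered libraries of different groups showed no clear joint deviation, so no pairing was assumed. The fit was tested on simulated counts with known changes.

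Alternatives were other size factors, scaling to epithelial or mesenchymal genes, other filters, sex as a covariate and the replicate number as a block. Others were leaving out each library, limma 3.58.1 (voom) and DESeq2 1.42.0. Scaling to mesenchymal genes, crossed numbers and the unshared exon lengths were added after seeing the data. All 10 members were described. From the other lists, up to 4 genes called per list and comparison with the smallest p were named, and Cdh1 in any case. For each member, the 3 genes with the highest Pearson r of log2 CPM (pseudocount 0.1, mean of at least 5 CPM) were named. For 1 gene of the actin linker list and 1 of the correlated genes, the result is not reported here. The members and lists were chosen with earlier results of these data known. Promoter windows came from RefSeq (GRCm38.p6). Member windows on chromosome 18, which holds Ctnna1, were left out, and windows of 8 of the 10 members were used.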

Additional observations from a re-analysis of the deposited data

Results flagged for a closer look

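Ctnnd1, the p120-catenin gene, was ordered in opposite ways in the 2 experiments. All 3 FGFRi libraries lay above all 3 DMSO libraries, and both HOM libraries lay below all 4 HET and WT libraries. The log2 fold change was 0.08 ± 0.08 for FGFRi and -0.29 ± 0.09 for HOM, and their difference (FGFRi minus HOM) was 0.37 ± 0.12. This difference did not pass in edgeR (adjusted p = 0.120 over all genes tested). The HOM change did not pass in edgeR and passed with limma-voom (adjusted p = 0.0431) and with protein-coding genes alone (0.0466). Leaving out each library in turn gave 0.31 to 0.44 for this difference. The counts of Ctnnd1 may lack reads from the exon bases that it shares with Gm28635.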

How the results depend on the processing

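For FGFRi against DMSO, 6 members were called, and 4 to 6 when each library was left out. With library totals in place of TMM the count was 2, where 1303 of all genes were called, against 3245 with TMM. For HOM against the mean of WT and HET, 2 members were called, and 0 to 2 without each library. The HOM count was 0 with library totals, 5 scaled to epithelial genes, 1 with no filter on low counts and 4 with limma-voom. Of all genes, 632, 9153, 1449 and 1228 were called in these fits, against 933 with the main settings. With sex as a covariate it was 0, where 46 of all genes were called and the sex term rests on DMSO 2 alone. For HOM against HET alone it was 0, with 237 of all genes called. Scaled to mesenchymal genes it was 9, with 5730 of all genes called. For DMSO against WT, 1 member was called, and 0 with library totals, epithelial or mesenchymal scaling, the compared groups alone, DESeq2's Wald test or any library left out. With sex as a covariate the count was again 1, with 480 of all genes called, but it was Ctnna2 (-1.77) and not Nectin3. That fit in effect sets DMSO 2 alone against WT. Mesenchymal scaling, added after seeing the data, moved the median of all genes to -0.90 for FGFRi. It gave 9 members called for FGFRi and for HET against WT, and 4 for the difference of the FGFRi and HOM effects, all lower. Of all genes it called 11594 for FGFRi, 7637 for HET against WT and 3962 for that difference.

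Scaling to epithelial genes turned the FGFRi direction of Ctnna1 (0.14), Ctnnb1 (0.30), Nectin1 (0.30), Vcl (0.25), Cdh1 (0.11), Actn1 (0.10), Actn4 (0.12) and Camsap3 (0.056). Cdh1 is itself 1 of the genes used for this scaling, so its value there is partly set in advance. In HOM the epithelial scaling turned the 9 members with falls and Jup (0.13). The members were Ctnna1 (0.27), Ctnnb1 (0.24), Ctnnd1 (0.17), Nectin1 (0.30), Nectin2 (0.35), Nectin3 (0.18), Nectin4 (0.025), Afdn (0.14) and Vcl (0.23). Mesenchymal scaling turned Ctnnd1 (-0.81), Nectin3 (-0.83) and Sorbs3 (-0.34) under FGFRi. The construction of these scalings sets this shift, which is close to that of the median gene.

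With the replicate number as a block, 5 members were called for FGFRi, 1 for HOM and 0 for DMSO against WT. Of all genes, 2837, 769 and 244 were called. Correlations of same-numbered deviations ran from -0.19 to 0.22 and gave no sign of pairing by number. Between groups of 2 libraries both numbers give the same value, so few of these checks are independent and pairing is not settled. With the WT numbers crossed, the member counts were 5, 2 and 0, and those of all genes 3077, 825 and 279.

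Per kilobase, the Nectin1 share of the nectins was 54.0% in FGFRi and 47.0% in DMSO glands, and 51.0% in HOM against 48.6% in HET and WT glands. The Nectin4 share was 25.8% in FGFRi and 32.0% in DMSO glands, and 26.2% in HOM against 30.2% in HET and WT glands. Ctnnd1 averaged 6.07 CPM per kilobase in DMSO glands, and 15.7 per kilobase of unshared exon. Ctnna2 rested on 21 counts in its lowest library.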
